A study of Temnothorax americanus and Temnothorax ambiguus and Temnothorax curvispinosus with 48 samples.

Results

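Of the 2140 assembled transcript pieces (contigs) that carried a protein name, 15 had a best match to a takeout family protein or to geranylgeranyl pyrophosphate synthase. They were chosen by their match titles, which had to contain circadian clock-controlled, takeout, juvenile hormone, geranylgeranyl pyrophosphate synthase or farnesyl. Of them, 8 were titled Circadian clock-controlled protein, 4 Protein takeout and 3 Geranylgeranyl pyrophosphate synthase or the same with -like added, while 0 titles held juvenile hormone and 0 held farnesyl. T. americanus had 4 of these contigs, T. duloticus 5, T. pilagens 5 and T. ambiguus 1. T. curvispinosus and T. longispinosus had 0.

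RNA was sequenced from whole bodies of workers of 3 slavemaking Temnothorax ants (T. pilagens, T. duloticus and T. americanus) and 3 host species (T. ambiguus, T. curvispinosus and T. longispinosus). Each library pooled 6 workers, 2 from each of 3 colonies, and each species had 4 libraries labelled before raid (called non-raiding here) and 4 labelled during raid (called raiding). Slavemakers of the non-raiding state were taken in mid-October, once raiding had ended for the year, and those of the raiding state during raids in summer, so that state and season cannot be told apart. The study pooled workers of the same colonies in both states, but the labels do not say which libraries share colonies, so the fits are unpaired. Non-raiding hosts were foragers and raiding hosts were workers defending their nest, and the hour of collection was not controlled in either state.

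Protein names were listed only for contigs that the study itself had called different between states. The difference between raiding and non-raiding libraries therefore chose these contigs, and it is given below as a description. Where a contig is said to be called, this records how the fit over all contigs of the species classed it, and supports nothing about the contig. Takeout proteins that did not differ would carry no name and could not be found, so the 15 contigs are not the whole family in any species. All 15 passed the filter on low counts. Library totals ranged from 5936238 to 88952971 counts over 48 libraries, and up to 49129121 counts in the 42 libraries used in the fits, after the study's removal of 6.

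The states follow the sample labels. Contig names carry letter tags of the library they were assembled from, and the 12 slavemaker libraries with such a tag read smadr where the label is before raid (8 libraries) and smifors where it is during raid (4 libraries). The host tags were hfbr in 7 libraries labelled before raid and hfdr in 4 labelled during raid. No source explains the tags, although the slavemaker letters can be read as those of the opposite state, and in the T. duloticus count table the columns of the raiding libraries are headed BR, as if collected before a raid, so they were matched by library number. If the slavemaker states were exchanged, each slavemaker difference below would keep its size and change its direction.

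Takeout proteins are small secreted carriers with a pocket for greasy ligands, and they are related in sequence to the juvenile hormone-binding proteins of insect hemolymph. In Drosophila the founding gene, takeout, is under control of the circadian clock, responds to starvation and acts in feeding and in male courtship, and the fat body of the head is one source of the protein. The title circadian clock-controlled protein is a database name for members of the same family and does not show that the ant gene cycles. Geranylgeranyl pyrophosphate synthase lies downstream of the mevalonate pathway. It extends farnesyl pyrophosphate, the precursor from which juvenile hormone is made, to geranylgeranyl pyrophosphate, which is attached to small GTPases.

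The 15 contigs matched 8 database records. The match covered between 168 and 285 residues, with bit scores from 185 to 494. For 10 of the 15 contigs the best match was a protein of the leafcutter ant Acromyrmex echinatior. One record, EGI59300.1, was the best match of 5 contigs in 4 species, and EGI62089.1, EFN61524.1 and XP_003703192.1 were each the best match of a pair of contigs. Contigs of 1 species with the same record can be parts or near-identical copies of 1 gene that share reads, so their counts are uncertain as measures of separate genes.

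By edgeR's quasi-likelihood test with an adjusted p under 0.05 over all tested contigs of a species, 8 of the 15 contigs were called, 4 higher and 4 lower in raiding libraries. In T. americanus 2 of 4 were called, both higher, where 0.421% of all 40389 tested contigs were called higher and 0.384% lower. In T. duloticus 1 of 5 was called higher and 1 lower, with 0.0793% and 0.284% of all 41591 contigs called in these directions. In T. pilagens 1 of 5 was called higher and 3 lower, with 0.940% and 1.94% of all 38402 contigs. In T. ambiguus the single contig was not called, and this test called 0% of 33331 contigs higher and 0 in all, although 2683 had an unadjusted p under 0.05 and 300 were called by the likelihood ratio test and 470 by DESeq2. By both of these other tests all 15 contigs were called. With all 8 libraries of a species the quasi-likelihood test called 9, with rep_c11557 of T. americanus added, and without the filter it called 6, with rep_c14437 of T. duloticus and contig_8204 of T. pilagens lost. Since the same contrast chose the contigs, nothing is read from these shares. In RNA of whole bodies, fewer cells of a type and less RNA per cell cannot be told apart.

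With 1 kept library left out in turn, the calls held to unequal degree. In T. pilagens contig_1210 and rep_c34139 were called in 7 of 7 such fits, s31050 in 4 and contig_8204 in 1. In T. duloticus rep_c14143 was called in 2 of 8 fits and rep_c14437 in 1, and in T. americanus rep_c6734 was called in 1 of 7 and rep_c9616 in 0. The number called in T. americanus was 0 without BR_433, BR_434, BR_435, DR_437 or DR_438, and 1 without DR_440, which was rep_c11557 and none of the original calls. In T. duloticus it was 0 without BR_417, BR_418, BR_420, DR_421 or DR_422 and 1 without BR_419 or DR_423, and in T. pilagens 2 without BR_681 or DR_684.

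**Figure D1:**
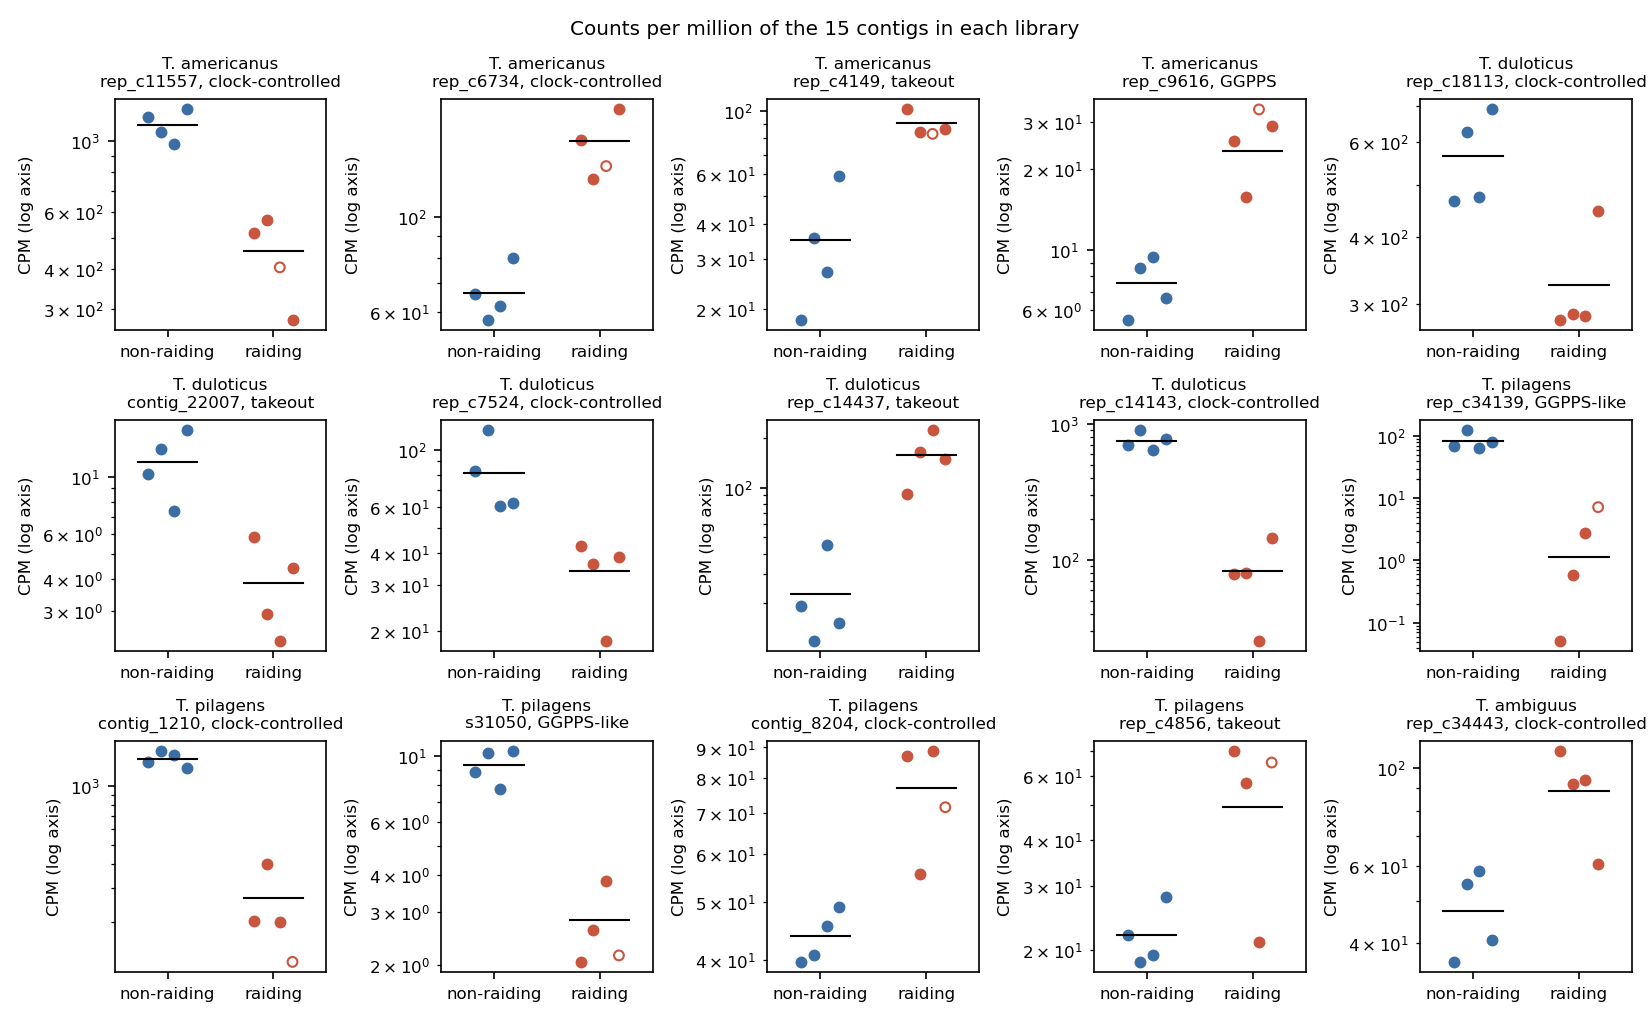
CPM (log axis) of each of the 15 contigs in each library by state (blue non-raiding, red raiding). Filled points are libraries kept by the study, open points the libraries it removed, and lines the mean of the kept libraries. GGPPS is geranylgeranyl pyrophosphate synthase. The states overlap among kept libraries for 1 contig, rep_c4856 of T. pilagens.

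The values below are CPM (counts of a contig per 1000000 counts of the library, after TMM scaling for library composition), which do not correct for contig length. The record EGI59300.1, titled Circadian clock-controlled protein, marked the contig of highest mean CPM in each slavemaker and the only contig of T. ambiguus.

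In T. americanus the EGI59300.1 contig rep_c11557 had 1190, 1067, 978 and 1255 CPM in the non-raiding libraries and 518, 569 and 278 CPM in the kept raiding libraries. All 4 non-raiding libraries lay above all raiding libraries. The log2 fold change was -1.30 (SE 0.24), which was not called by the quasi-likelihood test in the kept libraries and was called with all 8.

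In T. duloticus 2 contigs shared this record. The contig rep_c18113 had 467, 627, 475 and 691.3 CPM in the non-raiding libraries and 280, 287, 285 and 448 CPM in the raiding libraries. The non-raiding libraries were again the higher ones, but by a small margin, since library DR_424 stood well above the other raiding libraries. Its log2 fold change was -0.80 (SE 0.19) and was not called.

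The second T. duloticus contig, rep_c14143, had 703, 898, 650 and 774 CPM in the non-raiding libraries and 79.4, 80.4, 25.4 and 146 CPM in the raiding libraries. The lowest non-raiding library stood far above the highest raiding one. Its log2 fold change was -3.19 (SE 0.45), and it was called.

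In T. pilagens the EGI59300.1 contig, contig_1210, had 1332, 1512, 1444 and 1242 CPM in the non-raiding libraries and 203, 397 and 200.3 CPM in the kept raiding libraries. The non-raiding libraries were close to each other and far above the raiding ones. Its log2 fold change was -2.37 (SE 0.26), and it was called.

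In the host T. ambiguus the contig rep_c34443, with the same record, had 36.3, 54.5, 58.3 and 40.6 CPM in the non-raiding libraries, from foragers, and 109, 92.0, 94.0 and 60.5 CPM in the raiding libraries, from nest defenders. The defenders were higher than the foragers without overlap, the opposite order to the 4 slavemaker contigs of this record. The log2 fold change was 0.91 (SE 0.21) and was not called. The difference between species was not tested.

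**Figure D2:**
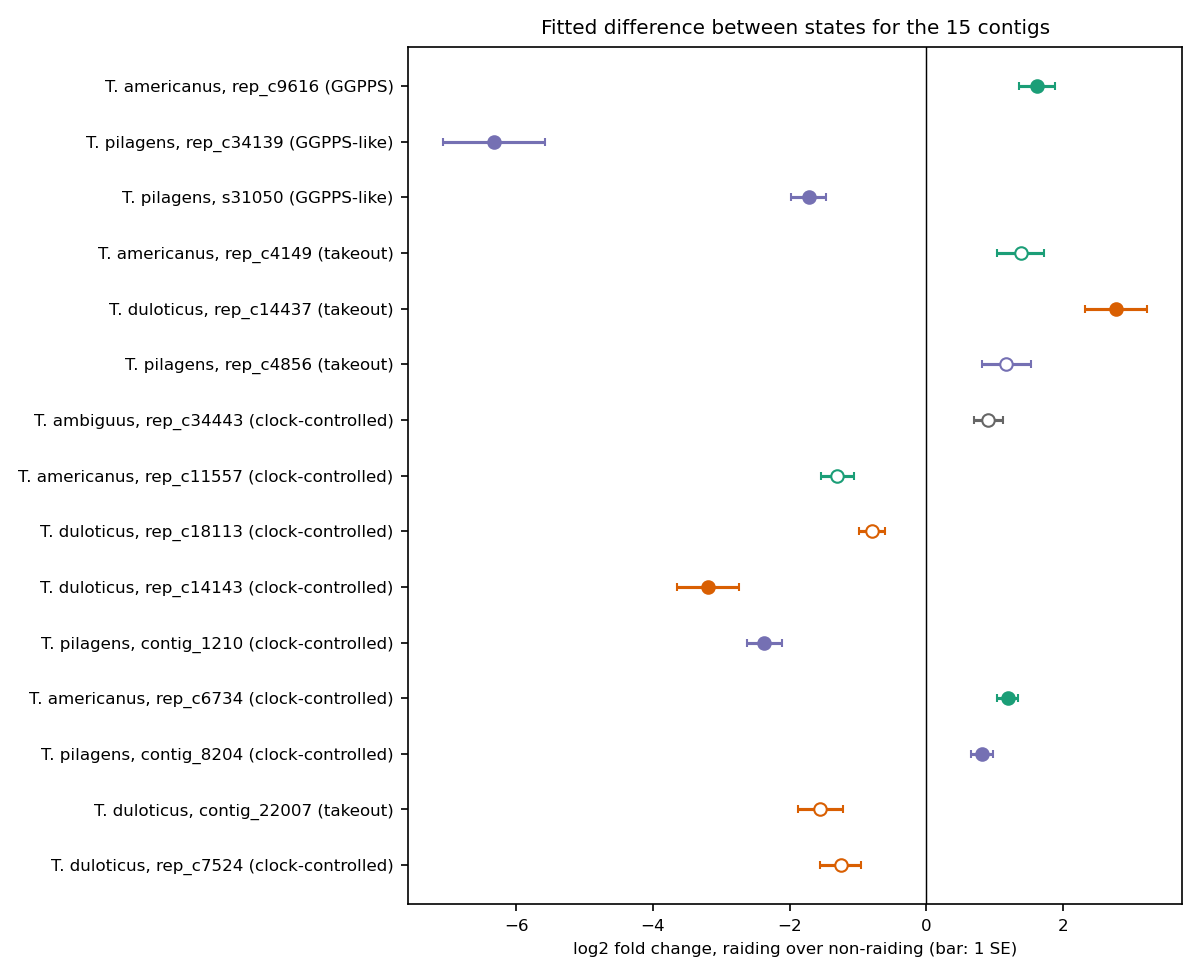
Fitted log2 fold change (raiding over non-raiding, horizontal axis) of the 15 contigs with 1 SE, grouped by database record and coloured by species. Filled points were called by the quasi-likelihood test. The 4 slavemaker contigs of EGI59300.1 lie below 0 and the T. ambiguus contig above it.

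A second circadian clock-controlled record, EGI62089.1, was found in T. americanus and T. pilagens and was higher in raiding libraries in both. In T. americanus rep_c6734 had 65.8, 57.4, 61.7 and 80.0 CPM in the non-raiding libraries and 151, 123 and 178 CPM in the kept raiding libraries, a log2 fold change of 1.19 (SE 0.16). In T. pilagens contig_8204 had 39.7, 40.8, 45.5 and 49.0 CPM in the non-raiding libraries and 87.1, 55.5 and 88.7 CPM in the kept raiding libraries, a log2 fold change of 0.82 (SE 0.17). Both were called and neither overlapped between states. In each of these species the circadian clock-controlled contigs thus lay on opposite sides of 0, with EGI59300.1 lower and EGI62089.1 higher in raiding libraries.

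The contigs titled protein takeout were mixed in direction as well. In T. duloticus rep_c14437, whose record EFN61524.1 comes from the carpenter ant Camponotus floridanus, had 19.3, 11.8, 45.2 and 15.2 CPM in the non-raiding libraries and 92.2, 165, 222 and 150 CPM in the raiding libraries. It was the contig with the largest positive log2 fold change of the 15, at 2.78 (SE 0.45), and was called. Non-raiding library BR_419 stood above the other non-raiding libraries but below each raiding one.

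The same record in T. americanus, contig rep_c4149, ranged from 18.3 to 59.1 CPM in non-raiding and from 84.0 to 101 CPM in kept raiding libraries, with a log2 fold change of 1.38 (SE 0.34) that was not called. In T. pilagens rep_c4856 (EGI58847.1) ranged from 18.6 to 28.003 CPM in non-raiding and from 21.0 to 69.9 CPM in raiding libraries, with a log2 fold change of 1.17 (SE 0.36). It was not called, and it was the only contig of the 15 whose states overlapped. In T. duloticus contig_22007 (EGI67974.1) was lower in raiding libraries, at 2.31 to 5.85 CPM against 7.37 to 15.1 CPM (log2 fold change -1.55, SE 0.33), and was not called.

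The remaining takeout family contig, rep_c7524 of T. duloticus (EGI67977.1, circadian clock-controlled protein), ranged from 60.5 to 118 CPM in non-raiding and from 18.3 to 42.6 CPM in raiding libraries (log2 fold change -1.25, SE 0.30), and was not called. Over the takeout family, 6 of 12 contigs had a positive and 6 a negative log2 fold change, with 3 and 2 called. States did not overlap for 4 of 4 contigs in T. americanus, where 13.7% of all tested contigs did not overlap, for 5 of 5 in T. duloticus (9.00% of all), for 4 of 5 in T. pilagens (17.2%) and for the 1 contig of T. ambiguus (5.37%). These counts too follow from how the contigs were chosen.

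The contig titled geranylgeranyl pyrophosphate synthase was higher in raiding T. americanus, and the contigs titled the same with -like added were lower in raiding T. pilagens. Their records differ between the species, and whether they are the same gene was not tested. In T. americanus rep_c9616 (EZA58644.1, from the ant Cerapachys biroi) had 5.52, 8.59, 9.48 and 6.67 CPM in the non-raiding libraries and 25.4, 15.8 and 29.0 CPM in the kept raiding libraries. The raiding libraries were higher without overlap, with a log2 fold change of 1.62 (SE 0.27), which was called with all kept libraries but in none of the 7 fits without 1 of them.

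In T. pilagens rep_c34139, matched to a geranylgeranyl pyrophosphate synthase-like protein of the bee Megachile rotundata, had 69.7, 123, 64.2 and 78.8 CPM in the non-raiding libraries and 0.051, 0.58 and 2.72 CPM in the kept raiding libraries. These raiding values rest on 1, 10 and 40 counts, against 1044 to 2055 counts in the non-raiding libraries. The transcript was nearly absent from raiding library DR_684 and low in the others. The log2 fold change of -6.33 (SE 0.74) was the largest in size of the 15 and was called. It ranged from -8.08 to -5.70 with 1 kept library left out and was -5.03 with all 8 libraries.

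A second T. pilagens contig with the same record, s31050, had 8.87, 10.2, 7.74 and 10.4 CPM in the non-raiding libraries and 2.05, 2.62 and 3.81 CPM in the kept raiding libraries (log2 fold change -1.72, SE 0.25, called). It was lower in raiding libraries than in non-raiding ones, as was rep_c34139, but by much less, so the counts of rep_c34139 per count of s31050 ranged from 7.60 to 12.0 in the non-raiding libraries and from 0.025 to 3.34 in all 4 raiding libraries.

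Both contigs of EGI59300.1 in T. duloticus differed in the same unequal way. Counts of rep_c14143 per count of rep_c18113 were 1.51, 1.43, 1.37 and 1.12 in the non-raiding libraries and 0.28, 0.28, 0.089 and 0.33 in the raiding libraries. The ratio is formed within a library and does not depend on its depth or scaling, but both contigs were chosen by the same contrast. Raiding library DR_423 had the lowest ratio, and its rep_c18113 value was close to those of libraries DR_421 and DR_422. The match of rep_c14143 covered 168 residues of the record and that of rep_c18113 covered 224.

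**Figure D3:**
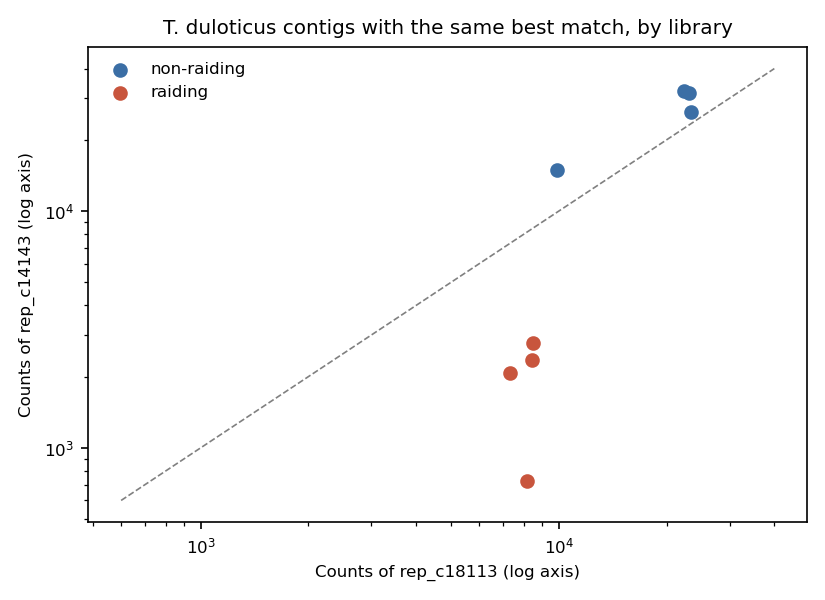
Counts of rep_c14143 against counts of rep_c18113 in the 8 T. duloticus libraries (log axes, 1 point per library, dashed line at equal counts). The 4 non-raiding libraries lie above the line, at ratios from 1.12 to 1.51, and the 4 raiding libraries below it, at ratios from 0.089 to 0.33.

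The 2 removed slavemaker libraries that could be set beside these contigs did not enter the study's calls. Raiding library DR_439 of T. americanus and raiding library DR_687 of T. pilagens gave 9 values in all, and 9 of 9 lay nearer to the mean of the kept raiding libraries than to that of the non-raiding libraries on the log2 scale. Of these, 5 lay inside the range of the kept raiding libraries, 2 between the ranges of the states, 1 above both and 1 below both. Library DR_439 had 405 CPM of rep_c11557, 131 of rep_c6734, 83.0 of rep_c4149 and 33.4 of rep_c9616. Library DR_687 had 125 CPM of contig_1210, which was lower than in any kept library, and 7.19 of rep_c34139, which lay between the states. It had 2.15 CPM of s31050, 71.6 of contig_8204 and 65.2 of rep_c4856. One library of a state allows no test, and the values of 1 library are not replicates. How many other contigs lay nearer to the raiding mean was not counted.

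Within each slavemaker, the contigs of EGI59300.1 held most of the counts on that species' own contigs among the 15. Their part was between 88.2% and 94.1% in the non-raiding libraries and between 48.6% and 77.4% in the kept raiding libraries. The share of all counts that fell on the contigs of a species ranged from 0.108% to 0.146% in non-raiding and from 0.0574% to 0.0785% in kept raiding libraries of T. americanus, from 0.123% to 0.167% and from 0.0498% to 0.0784% in T. duloticus, and from 0.140% to 0.169% and from 0.0321% to 0.0519% in T. pilagens. By mean CPM, without correction for length, EGI59300.1 contigs ranked 75 of 40389 contigs in T. americanus (rep_c11557), 219 and 239 of 41591 in T. duloticus (rep_c18113 and rep_c14143) and 79 of 38402 in T. pilagens (contig_1210). The contig of T. ambiguus, rep_c34443, ranked 3140 of 33331. The lowest rank among the 15 was that of s31050, at 12286.

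The spread between libraries of 1 state was compared with that of contigs of similar CPM. The standard deviation of log2 CPM within states ranged from 0.23 (rep_c6734) to 1.32 (rep_c34139), with a median of 0.40, and lay above the median of contigs within a factor of 2 in mean CPM for 14 of 15. The exception was s31050. The median position was the 82.7th percentile of those contigs. This is a description, since the contigs share libraries and were not drawn at random.

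After the mean of each state was removed, the contigs of T. duloticus fell into a pattern over its 8 libraries. Pearson's r was 0.77 between rep_c7524 and rep_c14143, 0.63 between contig_22007 and each of rep_c7524 and rep_c14143, and 0.59 between rep_c18113 and rep_c14143. The takeout contig rep_c14437 ran the other way, with r of -0.86 to contig_22007, -0.70 to rep_c7524, -0.43 to rep_c14143 and -0.38 to rep_c18113. So 6 of 10 pairs were positive, all of them among the contigs lower in raiding libraries. All pairs share the same libraries and depth, and no test was made.

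In T. duloticus 10 of 10 pairs were positive where both contigs had a log2 fold change of the same sign and negative where the signs differed, in T. americanus 5 of 6 and in T. pilagens 7 of 10. Each contig enters several pairs, and how often pairs of other contigs do the same was not counted. Nothing particular to these contigs is therefore read from the counts. The species were not compared by a test. In T. americanus r ranged from -0.67, between rep_c11557 and rep_c9616, to 0.40, between rep_c6734 and rep_c4149, with a median of 0.11 over 6 pairs. In T. pilagens it ranged from -0.77, between s31050 and rep_c4856, to 0.34, between rep_c34139 and s31050, with a median of -0.18 over 10 pairs. The last pair had r = 0.93 over the 7 kept libraries, so removed library DR_687 moved that value.

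**Figure D4:**
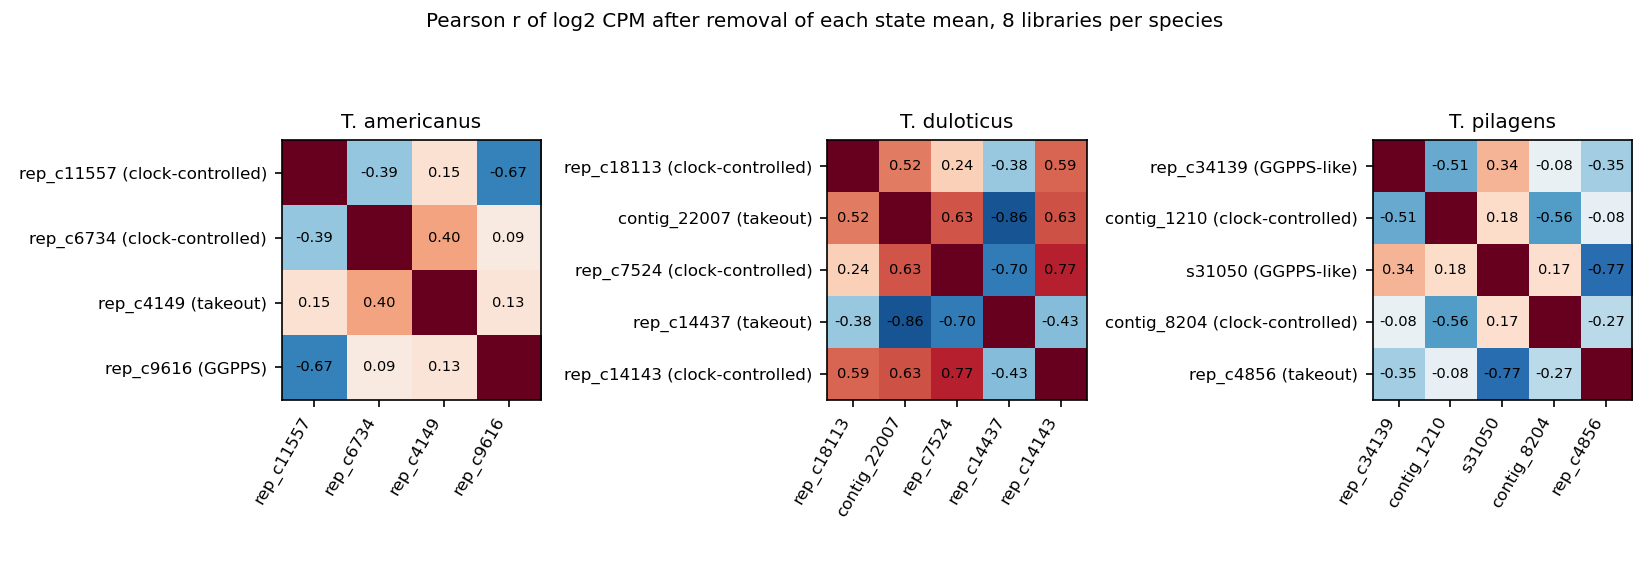
Pearson's r of log2 CPM between contigs within each slavemaker species after each state's mean was subtracted, over 8 libraries per species (colour from -1, blue, to 1, red). In T. duloticus the takeout contig rep_c14437 is negative with each of the other 4 contigs, down to -0.86.

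For the contig of highest mean CPM in each species, the named proteins with the most similar within-state pattern over 8 libraries were searched among named contigs only, and are given as a description. For rep_c11557 of T. americanus they were ATP-binding cassette sub-family G member 4 (r = 0.98), sugar transporter ERD6-like 7 (r = 0.91) and a proton-coupled amino acid transporter (r = 0.88), out of 248 named contigs. For rep_c18113 of T. duloticus they were fatty acid synthase (0.93), Golgin subfamily A member 5 (0.92) and a sodium-independent sulfate anion transporter (0.89), out of 214. For contig_1210 of T. pilagens they were sulfotransferase family cytosolic 1B member 1 (0.91), insulin-like growth factor-binding protein complex acid labile chain (0.90) and Myosin-IB (0.90), out of 514. For rep_c34443 of T. ambiguus they were acetyl-CoA carboxylase (0.68), alpha-amylase 1 (0.66) and acetyl-coenzyme A synthetase (0.61), out of 124.

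Other named contigs of the same pathways were few, and were subject to the same choice by the study's calls. The mevalonate pathway, which makes the isoprenoid units used by geranylgeranyl pyrophosphate synthase, was represented by 3 contigs in T. pilagens, all 3 called lower in raiding libraries (1.94% of all contigs were), and by 1 in T. duloticus that was not called. In T. pilagens 3-hydroxy-3-methylglutaryl-coenzyme A reductase, the rate-limiting enzyme, averaged 69.6 ± 14.6 CPM (SD, n = 4) in non-raiding and 27.4 ± 0.24 CPM (n = 3) in raiding libraries (log2 fold change -1.34, SE 0.16). Hydroxymethylglutaryl-CoA synthase 1, the step before it, averaged 136 ± 14.3 and 76.1 ± 6.84 CPM (log2 fold change -0.83, SE 0.11). Isopentenyl-diphosphate Delta-isomerase 1, which interconverts the isoprenoid units, averaged 179 ± 17.9 and 68.3 ± 31.8 CPM (log2 fold change -1.39, SE 0.27). None of the 3 overlapped between states (17.2% of all contigs did not), and both geranylgeranyl pyrophosphate synthase-like contigs of this species were lower as well.

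In T. duloticus isopentenyl-diphosphate Delta-isomerase 1 had a log2 fold change of -0.74 (SE 0.15), with 78.0 to 98.9 CPM in non-raiding and 39.0 to 61.8 CPM in raiding libraries. No contig of the juvenile hormone response list, such as methoprene-tolerant or Krueppel homolog 1, carried a name in any species. Of the clock list, 1 contig was named. It was aryl hydrocarbon receptor nuclear translocator-like protein 1 in T. pilagens, the vertebrate name for the partner of the Clock protein. It averaged 42.9 ± 2.46 CPM (n = 4) in non-raiding and 77.6 ± 5.12 CPM (n = 3) in raiding libraries. Its log2 fold change was 0.86 (SE 0.08), and it was called higher (0.940% of all contigs were).

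The ecdysteroid list held 2 named contigs in each slavemaker, and all 6 had a negative log2 fold change. These were 2 protein names found again in each species, and the study's calls chose them too. Ecdysteroid-regulated 16 kDa protein was called lower in T. americanus (-1.12, SE 0.19) and T. duloticus (-0.99, SE 0.15). Of all contigs 0.384% and 0.284% were called lower in these species. In T. pilagens its log2 fold change was -1.09 (SE 0.26) and was not called. The nuclear hormone receptor HR38 was called lower in T. pilagens (-2.21, SE 0.16), where 1.94% of all contigs were. The log2 fold change of HR38 was -1.40 (SE 0.36) in T. americanus and -1.19 (SE 0.27) in T. duloticus, neither called.

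**Figure D5:**
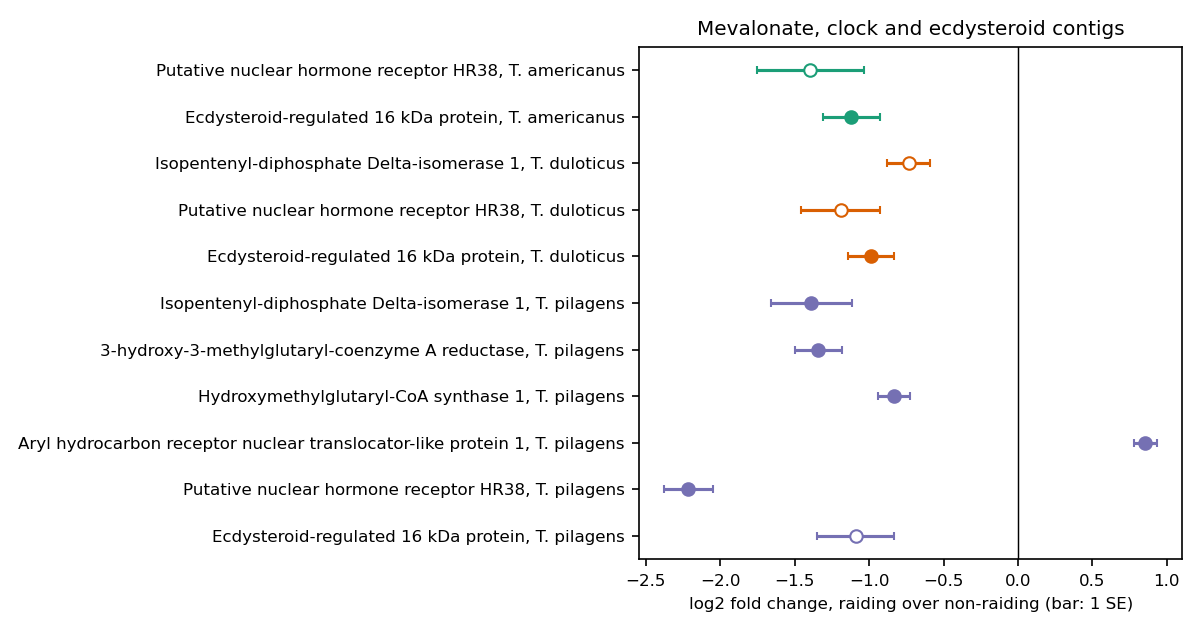
Fitted log2 fold change (raiding over non-raiding, horizontal axis) with 1 SE of named mevalonate, clock and ecdysteroid contigs in the 3 slavemakers. Filled points were called by the quasi-likelihood test. All but aryl hydrocarbon receptor nuclear translocator-like protein 1 of T. pilagens (0.86) lie below 0.

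Whole bodies hold many tissues, and marker contigs, chosen by name among contigs the study had called, are given as sums per library. The names taken for the fat body were vitellogenin, hexamerin and apolipophorin. The word vitellogenin also matches titles of the vitellogenin receptor, which the paper reports as different between states in T. duloticus, T. pilagens and T. ambiguus. In the paper's table the receptor is lower in raiding T. duloticus and T. pilagens and higher in raiding T. ambiguus. Most vitellogenin family entries of T. duloticus in that table are of the receptor. These counts and sums are therefore probably not of fat body markers alone, and they cannot be read as amounts of fat body. In T. duloticus 1 of 5 contigs was higher in raiding libraries. Its sums ranged from 3858 to 14503 CPM in non-raiding and from 608 to 2667 CPM in raiding libraries, without overlap. In T. ambiguus 3 of 3 were higher, with overlapping sums from 65.2 to 2214 CPM and from 2072 to 11949 CPM. In T. pilagens 1 of 2 was higher, with overlapping sums from 38.1 to 245 CPM and from 203 to 550 CPM, and T. americanus had 0 named.

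Contigs named for the gut (trypsin and chymotrypsin) were 5 in T. americanus, 6 in T. pilagens and 5 in T. ambiguus. Of these, 2, 3 and 2 passed the filter on low counts, and only those enter the sums. The paper reports Trypsin-7 lower in raiding in each slavemaker, so the T. americanus sums need not stand for all its gut contigs. In T. americanus 1 of 2 tested contigs was higher in raiding libraries. Its sums ranged from 9.28 to 29.2 CPM in non-raiding and from 78.9 to 731 CPM in raiding libraries. In T. duloticus 0 of 3 were higher, with sums from 113 to 423.6 and from 24.7 to 103 CPM, in T. pilagens 1 of 3, from 395 to 588 and from 494 to 548 CPM, and in T. ambiguus 2 of 2, from 8.94 to 47.3 and from 137 to 1415 CPM. The gut sums overlapped between states in T. pilagens only, of these 4 species. The word trypsin also matches titles of trypsin inhibitors, and the paper reports a trypsin inhibitor higher in raiding T. pilagens. The T. pilagens count and sums may therefore not be of proteases alone.

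For muscle (titin, myosin heavy chain, troponin and muscle lim protein) 2 of 2 contigs were higher in raiding T. americanus, with sums from 307 to 381 CPM in non-raiding and from 629 to 665 CPM in raiding libraries. In T. duloticus the 1 muscle contig ranged from 213 to 369 and from 17.9 to 170 CPM. In T. pilagens 4 of 5 tested contigs (6 named) were higher, with overlapping sums from 682.4 to 945 and from 910 to 1128 CPM. Venom contigs were tested in T. duloticus alone, where 0 of 2 were higher, with sums from 410 to 583 and from 184 to 316 CPM. The part of these tissues, and of the hour of collection, in the values of the takeout and synthase contigs was not tested.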

How the data were processed

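Per the study's methods, the authors trimmed reads with Trimmomatic, assembled contigs for each species without a genome, mapped reads to them with TopHat2 2.0.13 and counted them with eXpress. The deposited counts, whole numbers per contig and library, are the values used. The authors named contigs by their best BlastX match, and the deposited match scores (bits) and aligned positions (other values) were read for identity only. Deposited fold changes and p-values of the authors' own comparison, and 88 numeric columns that repeat library names, were not used.

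Counts were fitted per species in the 42 kept libraries with edgeR 4.0.16 (R 4.3.3): low contigs removed by filterByExpr (minimum count 10), scaling by TMM, the quasi-likelihood test of state and Benjamini-Hochberg adjustment at 0.05. CPM were scaled by TMM over all 8 libraries of a species, with a prior count of 2 on the log2 scale. Alternatives were the likelihood ratio test, DESeq2 1.42.0, RLE scaling, no filter, all libraries and leaving out each library. Samples were grouped by their labels. The same colonies were pooled in both states per the study's methods, and the labels do not link libraries to colonies, so the fits were unpaired and their standard errors and p-values measure only the spread between libraries. Library pairs of 1 state differed by at least 17.1 times the sampling variance per contig, so none was counted as a duplicate.

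Named were all members, with library values for those called and for the highest mean CPM per species, and pathway contigs where called. The members, lists and this rule were chosen with earlier results of these data known. Contigs have no genome position, and no sequences were used here.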

Additional observations from a re-analysis of the deposited data

Results flagged for a closer look

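In T. duloticus raiding library DR_424 had 448 CPM of rep_c18113 and stood far from the other 3 raiding libraries, at 280 to 287 CPM. Its gap to the next library, divided by the range of the 4 libraries, was above Dixon's critical value for 4 samples. Of 30 groups of 4 libraries tested in this way 1 was far enough apart, and chance gives about 1 in 20.

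The contigs matched to EGI59300.1 had log2 fold changes of opposite sign in different species, without overlap of states. The log2 fold change was 0.91 in T. ambiguus (rep_c34443), and -1.30 in T. americanus (rep_c11557), -0.80 and -3.19 in T. duloticus (rep_c18113 and rep_c14143) and -2.37 in T. pilagens (contig_1210). The difference was not tested, and neither was whether these contigs are the same gene in each species. The contrast was defenders against foragers in the host and summer raiders against autumn workers in the slavemakers. The signs in the slavemakers turn if the slavemaker states were exchanged.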

How the results depend on the processing

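No paired analysis was possible because library numbers differ between states and no label says which libraries of the states share colonies. All 15 log2 fold changes kept their sign under every alternative run. The number of the 15 contigs called was 8, and 15 by DESeq2 and by the likelihood ratio test, with the filter or without. These 3 alternatives also called more of all contigs in each species. In T. americanus DESeq2 called 1841 of 40389, the likelihood ratio test 1106 of 40389 and, without the filter, 1115 of 53695, against 325 in the main fit. Shares over all contigs are not given for the other alternatives, and nothing is read from the counts of members or pathway contigs. By these 3 alternatives it was 4 instead of 2 in T. americanus, 5 instead of 2 in T. duloticus and 1 instead of 0 in T. ambiguus. Without the filter 6 were called in all, 1 in T. duloticus and 3 instead of 4 in T. pilagens, and with all 8 libraries 9, 3 of them in T. americanus. With 1 library left out the number called ranged from 0 to 2 in T. americanus, from 0 to 2 in T. duloticus and from 2 to 4 in T. pilagens, and was 0 in T. ambiguus. Pathway contigs called were 2 instead of 1 in T. americanus by the 3 other tests and with all 8 libraries, and 0 with RLE scaling and without the filter. They were 3 instead of 1 in T. duloticus by the 3 other tests. The cause was not tested, except that leaving out a library leaves fewer samples. The 3 raiding libraries of T. americanus and T. pilagens and the low counts of rep_c34139 limit the precision.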
